A study of Mus musculus with 12 samples.

Results

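The 37 genes described here encode the proteins that carry glucose into a cell, break it down to lactate and feed the pentose phosphate branch, together with the oxygen-sensing genes that regulate them. They were chosen by function, with earlier results of these data known, and were measured in mouse dendritic cells before and after lipopolysaccharide. A probe belonged to a gene where its RefSeq accession did, and the brightest probe that passed a filter on dim signals stood for the gene. By that rule 35 of the 37 genes were tested, among 11095 genes in all. No probe could be matched to Gapdh, which encodes the glyceraldehyde-3-phosphate dehydrogenase of glycolysis, or to Pgd, which encodes an enzyme of the pentose phosphate branch, and both were not analysed here.

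Bone marrow cells, depleted of B and T cells, had been cultured for 5 days with the cytokines GM-CSF (10 ng/ml) and IL-4 (5 ng/ml), which yields dendritic cells, and LPS (lipopolysaccharide, an outer membrane molecule of Gram-negative bacteria) was added at 100 ng/ml. The 4 groups were unstimulated cells (0 h), LPS for 1 h, LPS for 6 h and LPS for 24 h, with 3 arrays each from donors A, B and C. Each array set the Cy5-labelled sample against a Cy3-labelled pool of mouse RNA that was the same throughout. Values are log2 ratios to that pool, so a difference of 1 is 2-fold, and they were compared between groups for 1 probe at a time, never between genes. No strain, sex or age of the mice and no sort of the cells before RNA extraction is given in the sources used here. Untreated cells kept for 1, 6 or 24 h were not analysed here, so time in culture and LPS cannot be told apart.

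In glycolysis, hexokinases trap glucose as glucose 6-phosphate, phosphofructokinase commits it to breakdown, and the enzymes from aldolase to pyruvate kinase make ATP and pyruvate. Pyruvate is then reduced to lactate and exported, or enters the mitochondria through pyruvate dehydrogenase, which pyruvate dehydrogenase kinases switch off. The transcription factor HIF-1 raises many of these genes when oxygen is low, and dendritic cells stimulated through Toll-like receptors are known for a rise in glucose use within minutes to hours.

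Sample signal was well above background at 48.2 to 57.6% of probes, depending on the array, and all 35 members were above background on all arrays of every group with 1 exception. That exception was Pfkfb2, above background on 3 of 3 unstimulated arrays, 2 of 3 at 1 h, 1 of 3 at 6 h and 3 of 3 at 24 h. The arrays lay on 4 slides. The 3 unstimulated arrays shared slide 1 with the 1 h array of donor A, and no slide held unstimulated cells beside 6 h or 24 h cells. A fit with slide as a block joins those groups only through the 1 h arrays and has 5 residual degrees of freedom in place of 8, and calls that it lost are named with their values below. The conventional dendritic cell markers Itgax, H2-Ab1 and Cd74 were tested and the list of 11 tested markers averaged log2 ratios of 2.61 to 2.86 on unstimulated arrays, 3.01 to 3.21 at 1 h, 3.15 to 3.45 at 6 h and 3.12 to 3.40 at 24 h. The averages of 7 neutrophil markers were 3.12 to 3.64 on unstimulated arrays, 1.91 to 2.56 at 1 h, 1.2 to 2.02 at 6 h and 1.10 to 2.02 at 24 h. Those of 4 genes of dividing cells were -1.05 to -0.86, -2.51 to -1.13, -3.30 to -1.88 and -3.45 to -2.89 in the same order. Those of 7 macrophage and monocyte genes were 1.29 to 1.56, 1.99 to 2.33, 1.68 to 1.70 and 1.05 to 1.21. The part of these shifts in the changes of the glucose genes was not tested. In RNA of whole cultures, fewer cells of a type and less RNA per cell cannot be told apart.

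The glucose genes did not move as a block. After 1 h of LPS, 2 of 35 members (5.71%) were called, both higher, against 7.45% of all genes called, with 4.06% higher and 3.39% lower. After 6 h, 12 of 35 (34.3%) were called, 5 higher and 7 lower, against 39.6% of all genes, with 16.1% higher and 23.5% lower. After 24 h, 15 of 35 (42.9%) were called, 8 higher and 7 lower, against 39.4% of all genes, with 18% higher and 21.5% lower. Each share was thus near that of all genes. The balance of directions depended on the normalization. With median centring in place of loess, 5 members were higher and 1 lower at 6 h, where 67.3% of all called genes were higher against 40.6% with loess. At 24 h, 3 members were higher and 6 lower, where 35.6% of all called genes were higher against 45.6%. At 1 h, 1 member was higher and 0 lower, where 79.6% of all called genes were higher against 54.5%. Median centring lost the calls of Hk3 at 1 h and of Pfkl, Pfkm, Pfkfb4, Tpi1, Slc16a3 and Pdk1 at 6 h. At 24 h it lost those of Slc2a1, Slc2a6, Hk3, Pdk3, Hif1a and G6pdx. The median log2 change of the members was 0.13 at 1 h, -0.13 at 6 h and -0.16 at 24 h, and that of all genes tested was 0.018, -0.038 and 0.022. A gene is called where limma's Benjamini-Hochberg adjusted p over all 11095 genes is under 0.05. In all, 19 members were called at 1 or more times against unstimulated cells, 16 were called at none, and 0 were called in both directions. Calls of at least 2-fold numbered 1 of 35 members at 1 h, 5 at 6 h and 6 at 24 h, against 2.51, 11.8 and 12% of all genes. Across the 4 groups, limma's moderated F test called 19 of 35 members and 51.7% of all genes. Arrays did not overlap with the unstimulated ones for 14.3% of members at 1 h, 54.3% at 6 h and 40% at 24 h. The shares of all genes were 30.7, 53.9 and 52.2%, so such separation was common. For 6 h against 1 h it was 37.1% of members and 40.8% of all genes, and for 24 h against 6 h 25.7 and 35%.

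**Figure D1:**
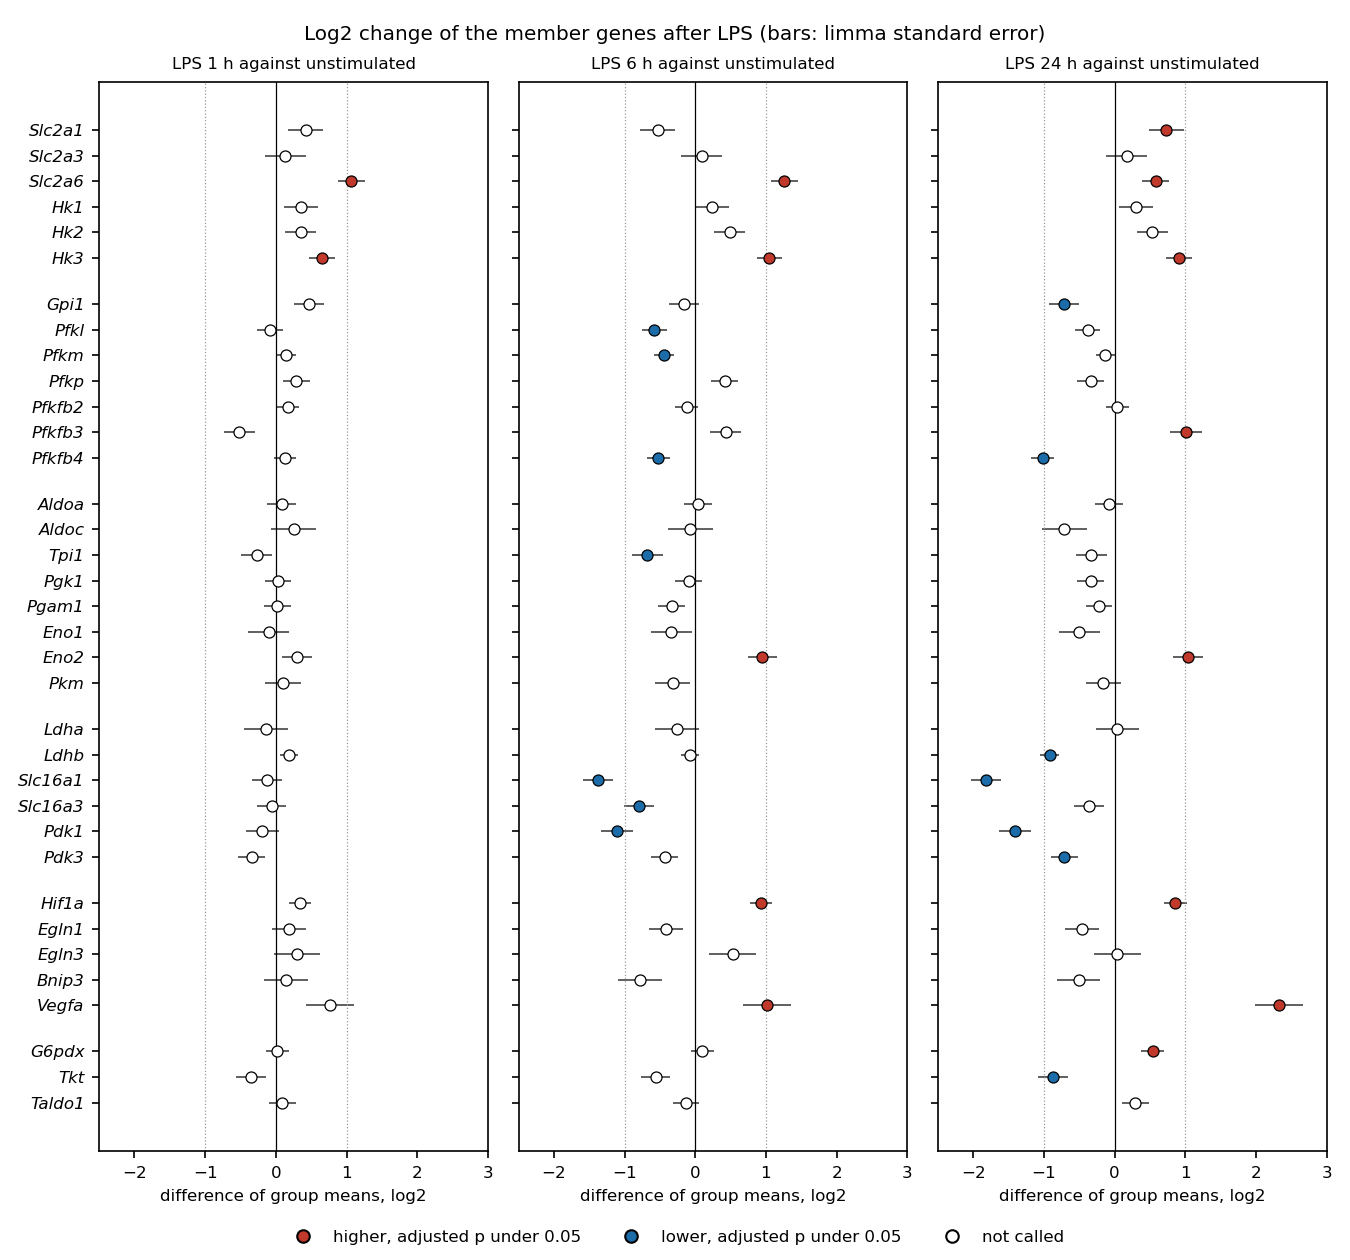
Log2 change of each of the 35 members after LPS for 1, 6 and 24 h against unstimulated cells, in order of pathway step, with limma standard errors and 3 arrays a group. Filled circles are called at an adjusted p under 0.05, and dotted lines mark 2-fold. The called members stand at 1 h in the glucose entry group only, and at 24 h run from -1.82 for Slc16a1 to 2.33 for Vegfa.

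Promoters of 6 members that the results turn on are shown for the letters that HIF-1 is known to bind, and to set genes that were higher and genes that were lower side by side. Each is the 250 bases before the most upstream start listed for the gene by RefSeq on GRCm38.p6, 5′ to 3′ on the gene's own strand. Capitals mark the core ACGTG or GCGTG, on either strand (CACGT or CACGC when read on the other one); where 2 overlap they form 1 run. Slc2a6 (chr2:27027999-27028248, minus strand), Pfkfb3 (chr2:11553930-11554179, minus strand) and Vegfa (chr17:46032378-46032627, minus strand) were higher at 24 h. Pfkfb4 (chr9:108991652-108991901, plus strand), Pdk1 (chr2:71872974-71873223, plus strand) and Slc16a1 (chr3:104638414-104638663, plus strand) were lower.
Slc2a6: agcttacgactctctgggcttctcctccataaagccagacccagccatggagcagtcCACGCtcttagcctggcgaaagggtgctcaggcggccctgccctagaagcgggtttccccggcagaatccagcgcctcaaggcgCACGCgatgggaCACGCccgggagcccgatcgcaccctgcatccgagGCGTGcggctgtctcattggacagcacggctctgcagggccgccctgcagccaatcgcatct
Pfkfb3: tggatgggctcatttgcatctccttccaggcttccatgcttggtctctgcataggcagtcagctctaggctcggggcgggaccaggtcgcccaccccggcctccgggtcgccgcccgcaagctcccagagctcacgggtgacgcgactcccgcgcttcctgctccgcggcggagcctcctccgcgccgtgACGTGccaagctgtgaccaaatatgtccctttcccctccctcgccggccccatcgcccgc
Vegfa: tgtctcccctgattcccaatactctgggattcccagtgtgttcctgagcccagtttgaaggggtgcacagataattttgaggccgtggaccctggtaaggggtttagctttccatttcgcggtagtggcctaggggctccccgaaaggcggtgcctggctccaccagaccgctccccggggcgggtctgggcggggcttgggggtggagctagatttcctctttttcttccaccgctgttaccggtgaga
Pfkfb4: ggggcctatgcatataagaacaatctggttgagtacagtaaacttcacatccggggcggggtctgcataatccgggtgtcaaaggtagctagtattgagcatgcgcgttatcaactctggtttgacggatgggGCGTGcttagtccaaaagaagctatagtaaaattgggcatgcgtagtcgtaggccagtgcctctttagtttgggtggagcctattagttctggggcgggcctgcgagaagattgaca
Pdk1: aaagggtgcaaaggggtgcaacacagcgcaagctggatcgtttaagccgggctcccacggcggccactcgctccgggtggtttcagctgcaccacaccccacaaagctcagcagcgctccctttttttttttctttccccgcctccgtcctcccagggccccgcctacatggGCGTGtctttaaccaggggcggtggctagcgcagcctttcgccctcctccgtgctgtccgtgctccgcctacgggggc
Slc16a1: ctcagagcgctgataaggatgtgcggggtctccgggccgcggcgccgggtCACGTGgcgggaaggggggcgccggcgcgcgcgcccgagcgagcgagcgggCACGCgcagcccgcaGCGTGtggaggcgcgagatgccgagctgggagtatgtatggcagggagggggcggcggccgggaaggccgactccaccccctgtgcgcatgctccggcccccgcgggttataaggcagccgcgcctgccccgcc

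Pfkfb3, Pfkfb4 and Pdk1 held 1 core each, Slc2a6 and Slc16a1 held 4 each, and Vegfa held 0 in this window. Over the 34 tested members with an entry, 27 (79.4%) held at least 1 core, against 38.6% of 27025 genes with 1 window each. The share was 6 of 8 (75.0%) among members higher at 24 h, 6 of 7 (85.7%) among those lower and 15 of 19 (78.9%) among those not called. The members' windows were also richer in G and C (median 60.4% against 52.0%) and in the pair CG (median 14 against 6), which both cores contain. The NF-kB decamer motif, searched on both strands, was in 3 of 34 windows (8.8%) against 7.0% of all. A match is a description of letters, and a window without one says nothing of sites elsewhere.

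Glucose entry and its trapping by hexokinase showed called changes in 1 direction only against unstimulated cells. Slc2a6, a glucose transporter of the GLUT family, and Hk3, the hexokinase typical of myeloid cells, were the 2 members that rose at 1 h, and both were also higher at 6 h and 24 h. Slc2a1, which encodes the widespread transporter GLUT1, rose at 24 h. The 3 remaining members of this group of 6 (Slc2a3, which encodes GLUT3, and the hexokinases Hk1 and Hk2) were called at none of the 3 times. The share called was 33.3% at 1 h, 33.3% at 6 h and 50% at 24 h, against 7.45, 39.6 and 39.4% of all genes.

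Slc2a6 had log2 ratios of 4.08, 3.90 and 3.71 in unstimulated cells of donors A, B and C, 4.84, 5.20 and 4.85 at 1 h, 5.48, 5.02 and 4.97 at 6 h, and 4.36, 4.86 and 4.20 at 24 h. Every LPS array was above every unstimulated array, and all 24 h arrays were below all 6 h arrays. The change was 1.07 ± 0.19 (limma standard error, as throughout; 2.10-fold, limma adjusted p = 0.0049) at 1 h, 1.26 ± 0.19 (2.39-fold, limma adjusted p = 0.00026) at 6 h and 0.58 ± 0.19 (1.49-fold, limma adjusted p = 0.030) at 24 h. The difference at 24 h against 6 h was -0.68 ± 0.19 (limma adjusted p = 0.027). That call was lost without the 6 h array of donor A or the 24 h array of donor A or C (-0.63 to -0.52). It was also lost with the scanner software's processed signals, with the 2 groups alone and with the local background as deposited. Over the 23 alternatives the difference ran from -1.12 to -0.15. The 1 h and 6 h calls against unstimulated cells were lost only with the local background as deposited. The 24 h call was lost in the slide-block fit (0.62, adjusted p = 0.17) and without the unstimulated array of donor B or C or the 24 h array of donor B (0.38 to 0.58, adjusted p 0.074 to 0.13).

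Hk3 had log2 ratios of 2.86, 2.38 and 3.22 in unstimulated cells, 3.57, 3.47 and 3.37 at 1 h, 3.81, 3.99 and 3.80 at 6 h, and 3.62, 3.68 and 3.89 at 24 h. The unstimulated arrays were the most spread, and all LPS arrays lay above them. The changes were 0.65 ± 0.18 (1.57-fold, limma adjusted p = 0.044) at 1 h, 1.05 ± 0.18 (2.07-fold, limma adjusted p = 0.00052) at 6 h and 0.91 ± 0.18 (1.88-fold, limma adjusted p = 0.0014) at 24 h. The 1 h call was weak: it was lost in 9 of the 12 fits that left out 1 array, with changes of 0.43 to 0.70. In the slide-block fit the change was 0.75 at 1 h (adjusted p = 0.22) and 1.07 at 24 h (adjusted p = 0.076), and the 6 h call held.

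Slc2a1 took a course of its own. It averaged 0.30 ± 0.28 (SD, n = 3, as for the other means) in unstimulated cells, 0.72 ± 0.28 at 1 h, -0.24 ± 0.08 at 6 h and 1.03 ± 0.58 at 24 h. It was lower at 6 h than at 1 h (-0.96 ± 0.25, limma adjusted p = 0.012) and higher at 24 h than at 6 h (1.26 ± 0.25, 2.40-fold, limma adjusted p = 0.0042). Against unstimulated cells only the 24 h change of 0.73 ± 0.25 was called (limma adjusted p = 0.032), and its groups overlapped. That call was lost in 9 of 22 alternatives. Among them were the slide-block fit (1.15, adjusted p = 0.14) and the fits without the unstimulated array of donor A or B or the 24 h array of donor C (0.42 to 0.71). The scanner software's processed signals, Cy5 alone, the 2 groups alone, the local background as deposited and median centring lost it too. Within slide 4, the only one that held both 6 h and 24 h arrays, the 24 h arrays were 1.34 above the 6 h array. The call at 24 h against 6 h was lost with median centring in place of loess (0.83, adjusted p = 0.22). Within slide 3 the 6 h arrays were 0.73 below the 1 h array, and that call was lost in the slide-block fit (-0.83, adjusted p = 0.084) and without the 1 h array of donor A (-0.80).

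Of the other hexokinases and transporters, Hk2 was 0.49 higher at 6 h and 0.53 higher at 24 h, with limma adjusted p of 0.095 and 0.074. All its 6 h arrays lay above the unstimulated ones, and 53.9% of all genes had no overlap there in 1 direction or the other. Slc2a3 averaged between 1.32 ± 0.35 and 1.48 ± 0.39 in the 4 groups. Its 24 h change of 0.17 had a 95% interval from -0.51 to 0.84, which does not exclude a 1.79-fold rise. Hk1 differed by 0.24 to 0.36 at the 3 times, with adjusted p of 0.36 or more.

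**Figure D2:**
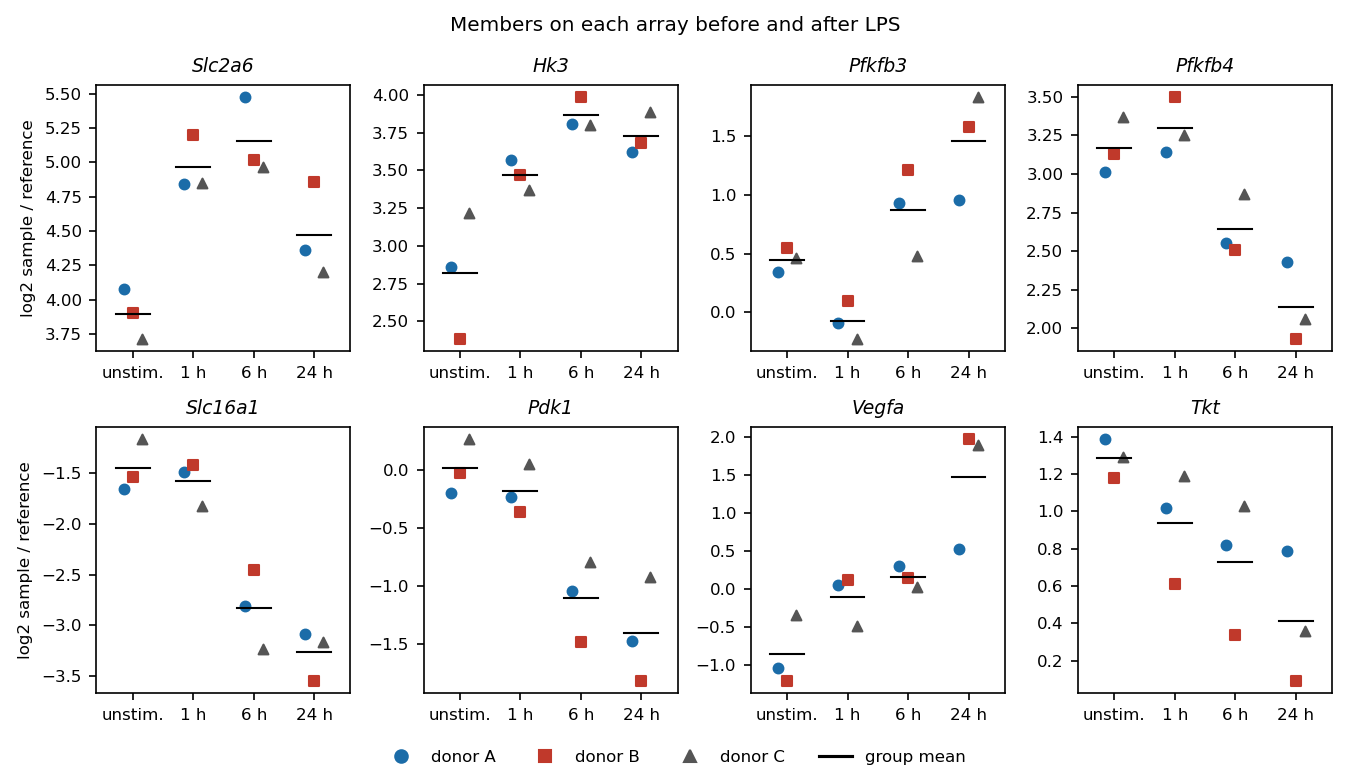
Log2 ratio of sample to reference on each of the 12 arrays for 8 members with a called change at 1 or more times, with donors A, B and C as symbols and the group means as lines. Slc2a6 and Hk3 are above the unstimulated arrays at all 3 times, and Pfkfb4, Slc16a1 and Pdk1 are below them at 6 h and 24 h. Each panel has its own vertical range.

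Among the regulators of the phosphofructokinase step, Pfkfb3 and Pfkfb4 changed in opposite directions and Pfkfb2 was not called. PFKFB enzymes make and remove fructose 2,6-bisphosphate, the strongest activator of phosphofructokinase. Pfkfb3, the form whose kinase activity prevails, was higher at 24 h, while Pfkfb4 was lower at 6 h and 24 h. Of the 7 members of this group, 0 were called at 1 h, 3 were lower at 6 h (Pfkl, Pfkm and Pfkfb4), and 1 was higher and 2 lower at 24 h (Pfkfb3 against Gpi1 and Pfkfb4). The share called was 42.9% at 6 h and at 24 h, against 39.6 and 39.4% of all genes.

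Pfkfb3 had log2 ratios of 0.34, 0.55 and 0.46 in unstimulated cells, -0.09, 0.10 and -0.23 at 1 h, 0.93, 1.21 and 0.48 at 6 h, and 0.96, 1.58 and 1.84 at 24 h. All 1 h arrays were below all unstimulated arrays, and all 24 h arrays were above them. The 1 h change of -0.52 ± 0.22 did not pass the test (limma adjusted p = 0.17), nor did the 6 h change of 0.43 ± 0.22 (limma adjusted p = 0.15). The 24 h change was 1.01 ± 0.22 (2.02-fold, limma adjusted p = 0.0029), and 6 h was above 1 h by 0.95 ± 0.22 (limma adjusted p = 0.0063). With slide as a block the 24 h change was 1.24 (adjusted p = 0.069). The 2 dimmer probes of Pfkfb3 changed by 0.43 and 0.44 at 24 h, and the 6 h to 1 h difference was not called over the mean of the probes (0.41).

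Pfkfb4 had log2 ratios of 3.01, 3.13 and 3.37 in unstimulated cells, 3.14, 3.50 and 3.25 at 1 h, 2.55, 2.51 and 2.87 at 6 h, and 2.43, 1.93 and 2.06 at 24 h. The 1 h arrays overlapped the unstimulated ones, the 6 h arrays lay below both, and the 24 h arrays lay below the 6 h arrays. The change was 0.13 ± 0.16 at 1 h (limma adjusted p = 0.66), -0.52 ± 0.16 at 6 h (limma adjusted p = 0.021) and -1.02 ± 0.16 at 24 h (2.03-fold lower, limma adjusted p = 0.00033). The 24 h call held under every one of the 22 alternatives (-1.50 to -0.92). The 6 h call was lost in the slide-block fit (-0.81, adjusted p = 0.056) and without the unstimulated array of donor C or the 6 h array of donor A or B (-0.48 to -0.42). Median centring in place of loess lost it as well. The step between 6 h and 24 h (-0.50, limma adjusted p = 0.048) was lost in 10 of the 12 fits that left out 1 array.

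Among the enzymes themselves, Gpi1, the isomerase between glucose 6-phosphate and fructose 6-phosphate, averaged 0.97 ± 0.45 in unstimulated cells, 1.44 ± 0.12 at 1 h, 0.81 ± 0.21 at 6 h and 0.25 ± 0.26 at 24 h. It was lower at 24 h by 0.72 ± 0.21 (ratio 0.607, limma adjusted p = 0.015), and lost that call in the slide-block fit (-0.77, adjusted p = 0.24) and without the unstimulated array of donor C or the 24 h array of donor B (-0.46 and -0.64). Pfkl and Pfkm, the liver and muscle forms of phosphofructokinase, were lower at 6 h by 0.58 ± 0.18 and 0.44 ± 0.14 (limma adjusted p 0.021 and 0.027), and neither was called at 24 h. Their calls were lost in the slide-block fit (-0.68 and -0.62, adjusted p 0.22 and 0.088), and each was lost in 4 of the 12 fits that left out 1 array. Both were also lost with median centring in place of loess.

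Pfkp, the platelet form, was not called against unstimulated cells but was lower at 24 h than at 6 h (-0.76 ± 0.19, limma adjusted p = 0.016; with slide as a block -0.74, adjusted p = 0.063). That call was also lost without the 6 h array of donor A (-0.63) or the 24 h array of donor B (-0.57). Its 2 probes differed: the brighter one changed by -0.34 at 24 h against unstimulated cells (adjusted p = 0.18) and the dimmer one by -1.43 (adjusted p = 1e-04, limma over probes). Pfkfb2 differed by -0.29 to 0.17 and was called in none of the 5 comparisons.

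The 8 genes from aldolase to pyruvate kinase, the later steps of glycolysis, where ATP is made, held 2 members called at any time against unstimulated cells. The share called was 25% at 6 h and 12.5% at 24 h, against 39.6 and 39.4% of all genes. Eno2, the enolase first described in neurons, was higher at 6 h and 24 h, and Tpi1, triosephosphate isomerase, was lower at 6 h. The 6 others (Aldoa, Aldoc, Pgk1, Pgam1, Eno1 and Pkm) were not called at 1, 6 or 24 h. With donor as a block, 3 of these 6 were lower at 24 h: Aldoc (-0.71, adjusted p = 0.0039), Eno1 (-0.50, adjusted p = 0.032) and Pgk1 (-0.34, adjusted p = 0.044).

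Eno2 had log2 ratios of -3.46, -3.81 and -3.67 in unstimulated cells, -3.36, -3.05 and -3.64 at 1 h, -2.45, -2.39 and -3.24 at 6 h, and -2.75, -2.51 and -2.55 at 24 h. At 6 h donor C was well below the others but still above every unstimulated array, and at 24 h the 3 donors were close together. The changes were 0.30 ± 0.21 at 1 h (limma adjusted p = 0.43), 0.95 ± 0.21 at 6 h (1.93-fold, limma adjusted p = 0.0035) and 1.04 ± 0.21 at 24 h (2.06-fold, limma adjusted p = 0.0020). The second probe changed by 1.00 at 24 h, and the 24 h call held under all 22 alternatives. With slide as a block the 6 h change was 1.12 (adjusted p = 0.054). Eno1, the enolase found in most cells, averaged -1.05 ± 0.13 in unstimulated cells and -1.54 ± 0.57 at 24 h, and its 24 h change of -0.50 had a 95% interval from -1.17 to 0.18.

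Tpi1 averaged -0.89 ± 0.40 at 6 h and -0.21 ± 0.18 in unstimulated cells, a difference of -0.68 ± 0.22 (ratio 0.625, limma adjusted p = 0.025). It was lost in the slide-block fit (-0.84, adjusted p = 0.20) and without the unstimulated array of donor A or C or the 6 h array of donor B (-0.69 to -0.46). With median centring in place of loess the call was lost as well. At 24 h the difference was -0.33 (adjusted p = 0.26).

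For the abundant enzymes the intervals bound what could have been missed. At 24 h against unstimulated cells the 95% interval of the ratio ran from 0.692 to 1.29 for Aldoa, 0.578 to 1.08 for Pgk1, 0.637 to 1.16 for Pgam1 and 0.602 to 1.32 for Pkm. Each of these excludes a 2-fold change in either direction. Aldoc, the aldolase best known from brain, changed by -0.71 (0.365 to 1.02, adjusted p = 0.10), and its interval does not. Several of these genes have close relatives or processed copies in the mouse genome, whose transcripts a probe may also bind, and this was not tested.

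The array of donor B was the lowest of its group for 7 of these 8 genes in unstimulated cells, at 1 h and again at 6 h, and for 3 of 8 at 24 h. Over all 11095 genes donor B was the lowest for 41.4% in unstimulated cells, 40.5% at 1 h, 37.2% at 6 h and 35% at 24 h, and over the 35 members for 21, 21, 24 and 18. Eno2 was the exception at 1 h and 6 h, with donor B the highest of the 3. The letter comes from the labels' donor field. At 1 h and 24 h the donor B array was the only one of its group on slide 2, so donor and slide cannot be told apart there.

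**Figure D3:**
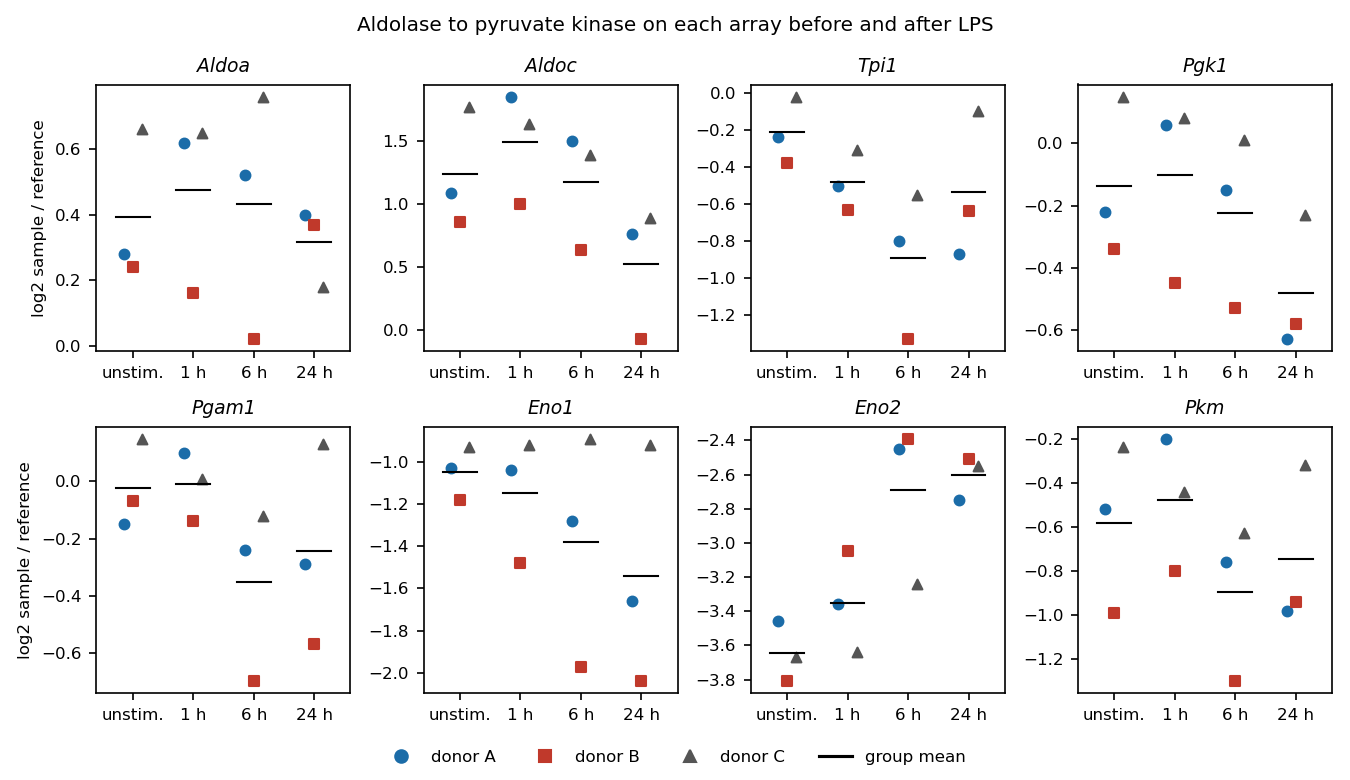
Log2 ratio of sample to reference on each array for the 8 genes from aldolase to pyruvate kinase, with donors as symbols and group means as lines. The squares of donor B are lowest in most panels before and up to 6 h after LPS, and Eno2 is the panel in which the 6 h and 24 h arrays lie above the unstimulated ones. Each panel has its own vertical range.

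Genes that handle pyruvate and lactate showed no called rise in any of the 5 comparisons. Of 6 members, 0 were called at 1 h, 3 were lower at 6 h (Slc16a1, Slc16a3 and Pdk1) and 4 were lower at 24 h (Slc16a1, Pdk1, Ldhb and Pdk3). That was 50% at 6 h and 66.7% at 24 h, against 39.6 and 39.4% of all genes called. Of all genes, 23.5 and 21.5% were lower at those times. Ldha, the lactate dehydrogenase subunit that favours lactate production, was called in none of the 5 comparisons.

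Slc16a1, which encodes the monocarboxylate carrier MCT1 that moves lactate in and out of cells, had log2 ratios of -1.66, -1.54 and -1.16 in unstimulated cells, -1.49, -1.42 and -1.82 at 1 h, -2.81, -2.45 and -3.23 at 6 h, and -3.08, -3.55 and -3.16 at 24 h. The first 2 groups overlapped, and all 6 h and 24 h arrays lay below both. The gene, whose promoter window held 4 cores, fell by 1.38 ± 0.21 at 6 h (2.61-fold lower, limma adjusted p = 0.00022) and by 1.82 ± 0.21 at 24 h (3.52-fold lower, limma adjusted p = 3.4e-05). The 24 h call held under all 22 alternatives (-2.17 to -1.25), and the 6 h call was lost with slide as a block (-1.28, adjusted p = 0.060). A second probe changed by -1.75 at 24 h, and the dimmest of the 3 probes by -0.17 (limma adjusted p = 0.29 over probes).

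Slc16a3, the related carrier MCT4 that exports lactate from strongly glycolytic cells, averaged 2.98 ± 0.06 in unstimulated cells, 2.92 ± 0.11 at 1 h, 2.18 ± 0.36 at 6 h and 2.62 ± 0.42 at 24 h. It was lower at 6 h by 0.80 ± 0.21 (ratio 0.576, limma adjusted p = 0.0083), was not called at 24 h (-0.36, adjusted p = 0.19), and lost the 6 h call with slide as a block (-0.85, adjusted p = 0.14). With median centring in place of loess the 6 h call was lost too. Within slide 3 the 6 h arrays of Slc16a3 were 0.94 below the 1 h array.

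Pdk1, a kinase that switches pyruvate dehydrogenase off, had log2 ratios of -0.20, -0.03 and 0.27 in unstimulated cells, -0.23, -0.36 and 0.05 at 1 h, -1.04, -1.48 and -0.79 at 6 h, and -1.47, -1.82 and -0.92 at 24 h. Donor C was the highest of each group, and the 6 h and 24 h arrays of all donors lay below the earlier ones. It fell by 1.11 ± 0.23 at 6 h (2.16-fold lower, limma adjusted p = 0.0021) and by 1.41 ± 0.23 at 24 h (2.66-fold lower, limma adjusted p = 0.00043). Both calls held with slide as a block. The 24 h call held under all 22 alternatives (-1.80 to -1.21), and the 6 h call was lost with median centring in place of loess (-1.11, adjusted p = 0.091). Pdk3, a second such kinase, was lower at 24 h by 0.71 ± 0.19 (ratio 0.613, limma adjusted p = 0.0088), which slide as a block did not keep (-0.50, adjusted p = 0.25).

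The lactate dehydrogenases differed in course. Ldhb, whose subunit favours the return of lactate to pyruvate, averaged -2.55 ± 0.13 in unstimulated cells, -2.36 ± 0.14 at 1 h, -2.62 ± 0.13 at 6 h and -3.47 ± 0.17 at 24 h. The first 3 groups overlapped, and the late group stood apart from them. It was lower at 24 h than in unstimulated cells by 0.92 ± 0.13 (ratio 0.530, limma adjusted p = 0.00017) and than at 6 h by 0.85 ± 0.13 (ratio 0.556, limma adjusted p = 0.0010). Both calls held under all alternatives tried, and within slide 4 the 24 h arrays were 0.95 below the 6 h array. Ldha averaged -0.48 ± 0.33 at 24 h and -0.52 ± 0.25 in unstimulated cells, with a 95% interval of the ratio from 0.620 to 1.69.

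The hypoxia axis held the largest rise among the members. Of its 5 genes, Hif1a, which encodes the oxygen-regulated subunit of HIF-1, and Vegfa, a HIF target that encodes the growth factor of blood vessels, were higher at 6 h and 24 h. The 3 others (Egln1 and Egln3, prolyl hydroxylases that mark HIF for destruction, and Bnip3, a HIF target in mitochondrial turnover) were not called against unstimulated cells. The share called was 40% at 6 h and at 24 h, against 39.6 and 39.4% of all genes.

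Vegfa had log2 ratios of -1.04, -1.22 and -0.34 in unstimulated cells, 0.05, 0.11 and -0.49 at 1 h, 0.30, 0.14 and 0.02 at 6 h, and 0.53, 1.98 and 1.90 at 24 h. Donor C overlapped the unstimulated range at 1 h, all arrays were above it at 6 h and 24 h, and donor A was far below the others at 24 h. The changes were 0.76 ± 0.34 at 1 h (limma adjusted p = 0.20), 1.02 ± 0.34 at 6 h (2.02-fold, limma adjusted p = 0.030) and 2.33 ± 0.34 at 24 h (5.04-fold, limma adjusted p = 0.00018). The 24 h call held under all 22 alternatives (1.82 to 2.80). The 6 h call did not hold in the slide-block fit (1.61, adjusted p = 0.089) or without the unstimulated array of donor A or B or the 6 h array of donor A or B (0.84 to 1.02). The rise between 6 h and 24 h was 1.32 ± 0.34 (limma adjusted p = 0.018), and 1.19 with slide as a block (adjusted p = 0.098). Without the 6 h array of donor B or the 24 h array of donor B or C it was 1.06 to 1.31 and not called. Its window held 0 cores and 1 NF-kB motif. The 3 probes of Vegfa changed by 2.33, 2.03 and 1.11 at 24 h. At 6 h the same probes changed by 1.02, 0.95 and 0.27, the last not called (limma adjusted p = 0.42 over probes).

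Hif1a averaged 0.33 ± 0.15 in unstimulated cells, 0.67 ± 0.05 at 1 h, 1.26 ± 0.23 at 6 h and 1.19 ± 0.31 at 24 h. All LPS arrays lay above the unstimulated ones, while the 1 h change of 0.34 did not pass the test (limma adjusted p = 0.22). It rose by 0.93 ± 0.16 (1.90-fold, limma adjusted p = 0.00066) at 6 h and 0.86 ± 0.16 (1.82-fold, limma adjusted p = 0.0011) at 24 h. Both calls held with slide as a block. The 6 h call held under all 22 alternatives, and the 24 h call was lost with median centring in place of loess (0.71, adjusted p = 0.052). Bnip3 was 0.78 lower at 6 h (limma adjusted p = 0.062) and was called only at 6 h against 1 h (-0.93 ± 0.31, limma adjusted p = 0.041), a call lost in 5 of the 12 fits that left out 1 array. Egln1 differed by -0.41 at 6 h and -0.46 at 24 h (adjusted p 0.20 and 0.15). Egln3 differed by 0.53 and 0.04.

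In the pentose phosphate branch, which yields NADPH and ribose, 2 of 3 genes were called at 24 h, in opposite directions. That was 66.7%, against 39.4% of all genes. G6pdx, which encodes glucose-6-phosphate dehydrogenase, the entry enzyme, averaged 0.34 ± 0.11 at 24 h and -0.19 ± 0.14 in unstimulated cells, a rise of 0.54 ± 0.16 (1.45-fold, limma adjusted p = 0.016). It was lost in the slide-block fit (0.46, adjusted p = 0.29) and without the unstimulated array of donor B or C (0.49 and 0.50). Tkt, which encodes the transketolase that returns pentoses to glycolysis, had log2 ratios of 1.39, 1.18 and 1.29 in unstimulated cells, 1.02, 0.61 and 1.19 at 1 h, 0.82, 0.34 and 1.03 at 6 h, and 0.79, 0.09 and 0.36 at 24 h. Donor B was the lowest in each group, and all 6 h and 24 h arrays were below the unstimulated ones. Tkt was lower at 24 h by 0.87 ± 0.21 (1.83-fold lower, limma adjusted p = 0.0056), and with slide as a block by 1.00 (adjusted p = 0.063). Taldo1, transaldolase, was not called at any time, with 0.29 at 24 h (adjusted p = 0.25).

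Consecutive times were compared as well. At 6 h against 1 h, 11 of 35 members (31.4%) were called, 3 higher (Pfkfb3, Eno2 and Hif1a) and 8 lower (Slc2a1, Gpi1, Pfkm, Pfkfb4, Slc16a1, Slc16a3, Pdk1 and Bnip3), against 28.2% of all genes, with 12% higher and 16.2% lower. Slide 3 held both times, and all 11 had the same sign there (-1.30 to 1.30). For all of them but Eno2 the 6 h and 1 h arrays did not overlap, so that shared sign was set in advance. The times compared on that slide also came from different donors, so donor and time cannot be told apart there. Of these 11 calls, 5 held in every fit that left out 1 array (Pfkfb3, Pfkm, Pfkfb4, Slc16a1 and Pdk1). Gpi1 (-0.64 to -0.52), Eno2 (0.51 to 0.66), Slc16a3 (-0.70 to -0.53) and Bnip3 (-0.95 to -0.77) were lost when 1 of several arrays was left out, and Hif1a without the 6 h array of donor B (0.46). At 24 h against 6 h, 6 of 35 (17.1%) were called, 2 higher (Slc2a1 and Vegfa) and 4 lower (Slc2a6, Pfkp, Pfkfb4 and Ldhb), against 18.4% of all genes, with 9.64% higher and 8.76% lower. With median centring 3 members were higher and 1 lower at 6 h against 1 h, where 83% of all called genes were higher against 42.6% with loess. For the later interval 0 were higher and 2 lower, where 10.4% of all called genes were higher against 52.4%. For all 6 calls of that interval the 24 h and 6 h arrays did not overlap, so their shared sign within slide 4 was set in advance. Of the 6, 2 (Slc2a1 and Ldhb) held in every fit that left out 1 array. Calls of at least 2-fold numbered 1 in the first of these comparisons and 2 in the second, against 7.48 and 3.83% of all genes. The 6 h cells enter both comparisons, and the unstimulated cells enter all 3 above.

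Slide as a block left 1 of 2 member calls at 1 h, 4 of 12 at 6 h and 7 of 15 at 24 h. Those were Slc2a6 at 1 h, Slc2a6, Hk3, Pdk1 and Hif1a at 6 h, and Pfkfb4, Eno2, Ldhb, Slc16a1, Pdk1, Hif1a and Vegfa at 24 h. No called change turned its sign. Other alternatives lost calls too. The local background as deposited lost Slc2a6 and Hk3 at 1, 6 and 24 h. It also lost Pfkl, Pfkm, Tpi1, Slc16a1 and Vegfa at 6 h, and Slc2a1, Gpi1 and G6pdx at 24 h. The scanner software's processed signals lost Hk3 at 1 h, Vegfa at 6 h, and Slc2a1 and Gpi1 at 24 h. Cy5 alone lost Hk3 at 1 h, Tpi1 at 6 h, and Slc2a1, Gpi1 and G6pdx at 24 h.

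**Figure D4:**
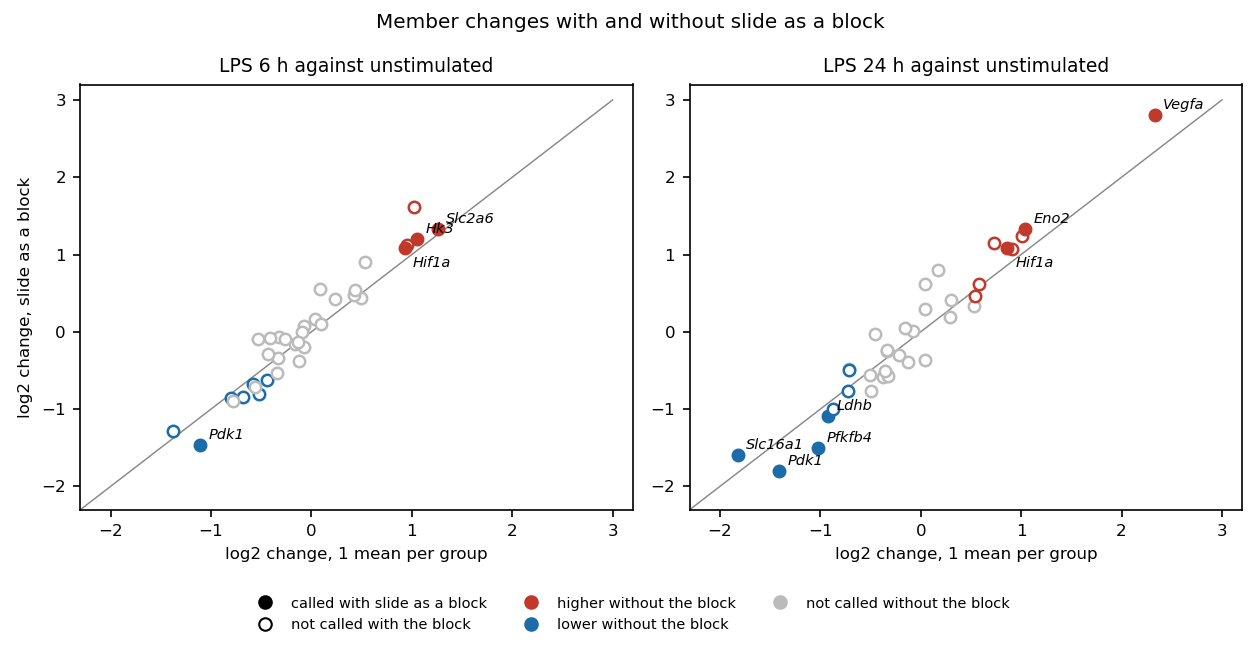
Log2 change of the 35 members at 6 h and 24 h against unstimulated cells, with 1 mean per group on the horizontal axis and with slide added as a block on the vertical axis. Filled circles are called with the block and carry names, 4 at 6 h and 7 at 24 h among those called without it. The line marks equal values.

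Donor as a block kept every member call of the 5 comparisons and added 14. Against unstimulated cells it added Bnip3 (-0.78, adjusted p = 0.0051), Tkt (-0.56, adjusted p = 0.0090), Pfkp (0.42, adjusted p = 0.027) and Pdk3 (-0.43, adjusted p = 0.028) at 6 h. At 24 h it added Egln1 (-0.46, adjusted p = 0.040) and Bnip3 (-0.51, adjusted p = 0.043), beside the Aldoc, Eno1 and Pgk1 calls given with the later steps of glycolysis. Of these 9 additions, 8 were lower after LPS, and all come from limma over all genes.

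Other genes of the pathway came from lists set by function, with earlier results of these data known. They were called about as often as all genes. Of 102 listed, 78 were tested, and 7 (8.97%) were called at 1 h, 30 (38.5%) at 6 h and 36 (46.2%) at 24 h. At 24 h 12 (15.4%) were higher and 24 (30.8%) lower, against 18% and 21.5% of all genes. The list for pyruvate entry into the mitochondria is named here after its values were seen. Of its 9 tested genes, 0 were called at 1 h and 3 (33.3%, against 39.6% of all genes) at 6 h. At 24 h 7 (77.8%, against 39.4% of all genes) were called, 6 lower and 1 higher (Pdk2). The lower ones were Mpc2, a subunit of the pyruvate carrier, Pdha1, Dlat, Dld and Pdhx of the pyruvate dehydrogenase complex, and its phosphatase Pdp1. The 24 h changes of the 9 genes ran from -0.60 to 0.37. Alternative fits are reported for the members only.

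Among other enzymes, Gpd2 was higher and Ldhc lower. Gpd2, the mitochondrial glycerol phosphate dehydrogenase, averaged 0.84 ± 0.22 at 6 h, 0.82 ± 0.17 at 24 h and -0.70 ± 0.08 in unstimulated cells, a rise of 1.54 ± 0.13 and 1.53 ± 0.13 (limma adjusted p 2.5e-06 and 4.4e-06). Gpd1l, related to the cytosolic form of that enzyme, was lower at all 3 times, by 1.05 ± 0.16 at 24 h (limma adjusted p = 0.00023). Ldhc, the testis form of lactate dehydrogenase, was lower at all 3 times, by 2.47 ± 0.44 at 24 h (limma adjusted p = 0.00081). Eno3, the muscle enolase, was lower at 6 h and 24 h (-1.10 and -1.24), opposite in sign to Eno2.

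Fbp1, a gluconeogenic phosphatase, averaged 7.43 ± 0.49 at 1 h and 7.10 ± 0.55 at 6 h, both not called against 6.12 ± 0.27 in unstimulated cells, and was lower at 24 h (4.41 ± 1.37; change -1.71 ± 0.52, limma adjusted p = 0.020). Slc37a4, the glucose 6-phosphate carrier of the endoplasmic reticulum, was lower at 6 h only (-1.23 ± 0.18, limma adjusted p = 0.00021). Pgm2l1, which makes glucose 1,6-bisphosphate, was lower at 6 h and 24 h (-1.21 and -1.13), as was Rbks, ribokinase (-0.93 and -1.28).

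Other HIF target genes also split. Of 18 tested, 3 (16.7%) were called at 1 h, 8 (44.4%) at 6 h and 10 (55.6%) at 24 h. The shares of all genes were 7.45, 39.6 and 39.4%. At 6 h 5 were higher and 3 lower, and at 24 h 7 were higher and 3 lower. Adm, which encodes the vasodilator adrenomedullin, rose by 1.60, 1.01 and 1.13 at 1, 6 and 24 h (limma adjusted p 0.019, 0.043 and 0.026). Plod2, a collagen lysyl hydroxylase, was higher at 6 h and 24 h (1.19 and 1.02), and the nuclear receptor gene Rora at 24 h (1.13).

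Tfrc, the transferrin receptor gene, was lower by 2.30 ± 0.37 at 6 h and 2.26 ± 0.37 at 24 h (limma adjusted p 0.00041 and 0.00047). Ddit4, an inhibitor of mTOR signalling, was lower at 6 h (-2.17 ± 0.33, limma adjusted p = 0.00025) and not at 24 h (0.28, adjusted p = 0.53). Ankrd37 followed the same course, with -1.32 at 6 h and -0.27 at 24 h. Of 6 tested HIF subunits and regulators, Cited2, which competes with HIF for its coactivator, was higher at 1 h and 6 h and lower at 24 h, and Vhl, which brings HIF to destruction, was lower at all 3 times.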

How the data were processed

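The members and lists were chosen with earlier results of these data known. The deposited scanner files hold raw median spot and background intensity in 2 channels for 45018 spots, from Agilent Feature Extraction 10.7.3.1 per the file headers. The deposited value table holds log2 ratios that the authors made with limma, per the submitters' processing notes, at a version not given in the sources used here. Values here were computed from the scanner files with R 4.3.3 and limma 3.58.1: normexp background correction (offset 50), loess within arrays (span 0.3, the 1639 control spots at weight 0), and the mean over spots of a probe. Local backgrounds marked as outliers were replaced by the array's median and outlier spots left out, both chosen after seeing the files. On each array the correlation with the authors' table across probes was 0.999 or higher. A probe was kept where its sample signal was marked well above background on all 3 arrays of a group, and the brightest probe stood for a gene. limma was fitted with 1 mean per group over all 12 arrays, with two-sided tests and Benjamini-Hochberg adjustment over 11095 genes, and was tested on simulated data.

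Members are given array by array where, within a role, they were called and at least 2-fold changed against unstimulated cells, or, in a role with none, had the smallest F-test p. Other pathway genes are named where called at 2-fold or more against unstimulated cells, except 1 that is not reported here, and a few more by their counts after their values were seen. The donor letters stand in every group, which pairs the arrays by label; deviations from group means correlated at a median r of 0.11 between arrays of 1 letter (18 pairs, -0.21 to 0.58) and -0.01 between letters (36 pairs). Alternatives were slide and donor as blocks, other background corrections and normalizations, Cy5 alone, the authors' table, no filter, the mean over probes, the 2 groups alone and leaving out each array. The number of arrays limits the precision.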

Additional observations from a re-analysis of the deposited data

How the results depend on the processing

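No called change of a member turned its sign under any alternative, and no member not called was called there in the opposite direction. Changes of sign among members that stayed not called were not counted. With donor as a replicate block, 2, 16, 20, 13 and 9 members were called after 1, 6 and 24 h relative to unstimulated cells, 6 h relative to 1 h, and 24 h relative to 6 h, in place of 2, 12, 15, 11 and 6; the calls it changed against unstimulated cells stand in the report, and between consecutive times it added 5, and it took none away. Slide as a block called 1 at 1 h, 4 at 6 h and 7 at 24 h. In the same order of comparisons, median centring in place of loess called 1, 6, 9, 4 and 2, and moved the median of all genes by -0.14, 0.09, -0.13, 0.22 and -0.22. normexp with the deposited local background called 0 after 1 h, 5 after 6 h and 3 in each comparison of consecutive times. The scanner software's processed signals, Cy5 alone, no filter and the 2 groups alone each called 1 at 1 h, and Cy5 alone called 7 for 6 h relative to 1 h. Leaving out 1 array gave 1 to 3, 8 to 15, 12 to 18, 6 to 12 and 3 to 6. The causes were not tested.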
